A study of Mus musculus with 6 samples.

Results

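Cells write, read and erase methyl groups on cytosines of DNA, and 10 genes of that machinery were followed with and without overexpression of A20 in TM3, an established line of mouse Leydig cells. They were taken by name from a deposited count table of 54532 genes: the writers Dnmt1, Dnmt3a, Dnmt3b and Uhrf1, the erasers Tet1, Tet2, Tet3 and Tdg, and the readers Mbd2 and Mbd3. The list was drawn up by function when a difference in Tet2 between these groups was already known, so the Tet2 values are a description and support nothing. Of the 10 genes, 9 passed the filter on low counts, and Tet1 did not.

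RNA sequencing covered 6 libraries: 3 of control TM3 cells with the genotype WT and 3 of TM3 cells with the genotype A20 overexpression. All were grown in the same medium with fetal bovine and horse serum. A20 is the ubiquitin-editing enzyme encoded by Tnfaip3. The construct, and whether a group was 1 clone or several cultures, is not given in the sources used here, so p-values measure only the spread between these libraries, which may be technical. These were bulk samples, in which fewer cells of a type and less RNA per cell cannot be told apart.

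Methylation of a CG pair in a promoter is a lasting mark of gene silencing. Dnmt3a and Dnmt3b set it on unmethylated DNA, and Dnmt1, guided by Uhrf1 to newly replicated DNA, copies it to the daughter strand. TET dioxygenases oxidise the methyl group, the glycosylase Tdg cuts out the oxidised base, and Mbd2 and Mbd3 belong to alternative forms of the NuRD repressor complex. In the testis this machinery is best known for resetting methylation in germ cells. Leydig cells are somatic, androgen-producing cells.

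Tet2 and Tet3 encode enzymes of the same kind, and their promoters are shown because Tet2 held the one large difference among the 10 genes while Tet3 did not. Each sequence is the 250 bases before a RefSeq start in build GRCm38.p6, written 5′ to 3′ on the gene's strand, with CG pairs, the sites of methylation, in capitals.
Tet2, chr3:133544391-133544640, minus strand: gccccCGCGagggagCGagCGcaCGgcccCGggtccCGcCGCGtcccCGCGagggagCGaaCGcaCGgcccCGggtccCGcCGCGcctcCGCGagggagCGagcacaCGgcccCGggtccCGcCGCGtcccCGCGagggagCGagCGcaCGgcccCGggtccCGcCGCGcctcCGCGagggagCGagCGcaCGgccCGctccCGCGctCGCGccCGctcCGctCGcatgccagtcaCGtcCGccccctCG
Tet3, chr6:83441679-83441928, minus strand: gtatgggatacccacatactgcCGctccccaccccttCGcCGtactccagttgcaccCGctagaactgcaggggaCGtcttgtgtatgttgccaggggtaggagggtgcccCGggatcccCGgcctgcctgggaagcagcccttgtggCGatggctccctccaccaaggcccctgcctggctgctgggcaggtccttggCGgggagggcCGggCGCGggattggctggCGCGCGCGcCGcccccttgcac
The Tet2 window lies in an intron of a longer Tet2 transcript in GENCODE M21 and touches no annotated exon. The Tet3 window lies in introns of Tet3 and overlaps an exon of the opposite-strand transcript B230319C09Rik.

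The Tet2 window held 51 CG pairs and the Tet3 window 17. Over 32851 RefSeq windows of this length the median was 6 CG pairs, and 99.9% of windows held fewer than Tet2. Part of the Tet2 window is a repeat: the 14 bases ccgcgagggagcga occur 5 times, each copy starting 42 bases after the one before, and each holds 3 CG pairs. An exact repeat of 20 bases was found in 2.50% of all windows, the Tet2 window among them. RefSeq windows were found for 9 of the 10 genes, 14 windows in all, Mbd2 being the gene without one. The richest windows of Dnmt3a, Uhrf1, Dnmt1 and Dnmt3b held 40, 30, 26 and 21 CG pairs, and the windows of Tdg, Tet1 and Mbd3 held 19, 15 and 14. DNA methylation itself was not measured, so these counts describe sequence and not its state.

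**Figure D1:**
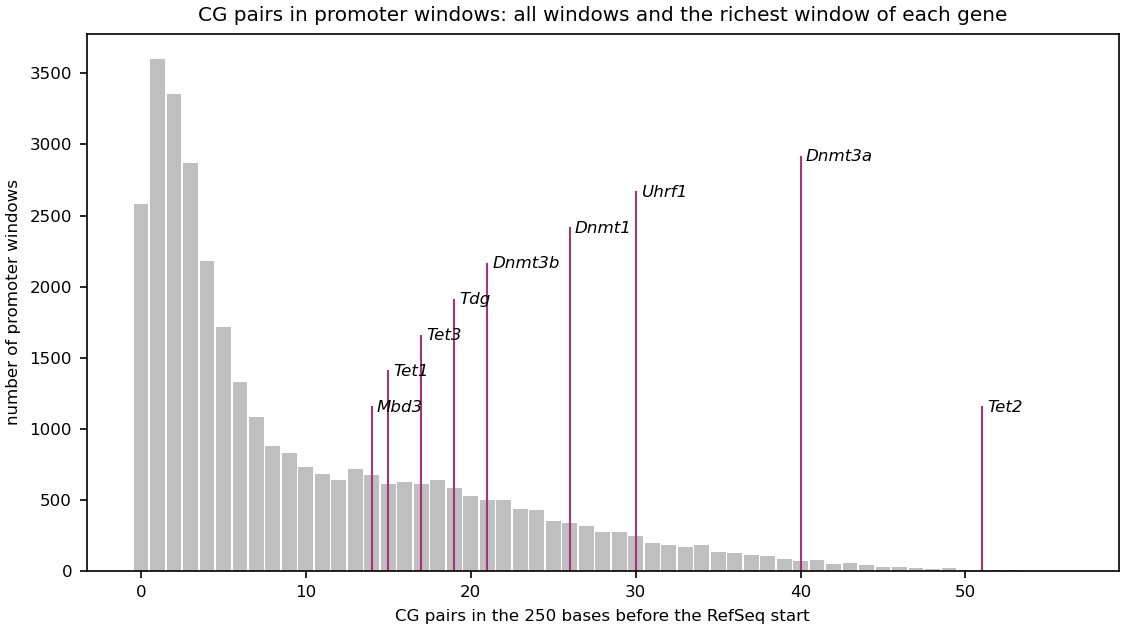
Number of RefSeq promoter windows (y axis) by the CG pairs in their 250 bases (x axis), with purple lines at the richest window of each of 9 genes. Tet2 stands at 51 CG pairs, Dnmt3a at 40 and Mbd3, the lowest, at 14, against a median of 6.

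Total counts ran from 13841287 to 16917979 per library, and a gene without a count could lie at up to 0.177 to 0.217 CPM (counts scaled to equal library totals), the level of 3 counts, which covers counting error only. Tnfaip3 stood at 33.7 to 43.6 CPM in the A20-overexpressing libraries and at 30.9 CPM in control replicate 1. In control replicates 2 and 3 it stood at 11.9 and 15.2 CPM. Control replicate 1 stood apart from the other 5 libraries. The 9 Leydig cell markers summed to 2040 CPM in it, to 3.97 and 6.29 CPM in the other controls and to 5.26 to 7.86 CPM in the A20-overexpressing libraries; Hsd17b3 had no count in any library, and Cyp17a1, Lhcgr, Hsd3b1 and Hsd3b6 none outside control replicate 1. The defining markers of the labelled cell type were thus near absent from 5 of the 6 libraries. The 20 S phase genes summed to 2798 CPM in control replicate 1, to 1614 and 1738 CPM in the other controls and to 1541 to 1866 CPM with A20 overexpression. Markers of other cells also differed there: 7 Sertoli cell markers summed to 234.9 CPM, against 9.46 to 31.5 CPM elsewhere, and 6 macrophage markers to 5.28 CPM, against 20.7 to 39.9 CPM. For germ cell, endothelial and peritubular myoid markers the sums were 9.77, 36.7 and 88.7 CPM, against ranges of 6.13 to 12.2, 3.11 to 4.85 and 37.1 to 59.6 CPM. These sums rest on few genes. Under 1 CPM in every library were 3 of 7 Sertoli, 4 of 6 macrophage, 5 of 7 germ cell, 3 of 5 endothelial and 2 of 5 myoid markers. Control replicate 1 lay above each other library for 3, 1, 2, 2 and 2 markers of these lists in turn. It lay below each for 0, 2, 0, 1 and 1. Sox9, Fshr, Dazl, Prm2, Tnp1, Ptprc and Adgre1 had no count in any library. The part of these cells in the values below was not tested. Among 13350 genes tested, control replicate 1 lay above each other library for 40.7% and below each for 21.7%. Fitted differences are therefore given with all 6 libraries and again without it.

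Differences were tested with edgeR's quasi-likelihood test, with p-values adjusted over all genes kept and 0.05 as the threshold. With all 6 libraries 0 of 9 members passed, where 0.015% of all genes did, 0.00749% higher and 0.00749% lower. DESeq2 called 1, Tet2, and limma-voom 0, and their counts over all genes are given in the last section. At an unadjusted p under 0.05 were 2 members, Tet2 and Uhrf1, both lower, against 10% of all genes, 5.86% lower and 4.19% higher. Leaving out control replicate 1, edgeR called 1 of 9, Tet2, where 4.6% of all genes were called, 2.68% lower and 1.92% higher. This is the contrast through which Tet2 was known, so nothing is read from that count. In the same fit 3 members had an unadjusted p under 0.05, Tet2 and Uhrf1 lower and Mbd3 higher, against 21.6% of all genes, 11.2% lower and 10.4% higher. Separation in CPM, every library of one group above every library of the other, was seen with all 6 libraries for 2 of 9 members, Tet2 and Uhrf1, both lower. Of all genes 16.9% were so separated, 9.27% lower and 7.62% higher. With 5 libraries 4 of 9 members were separated, Tet2 and Uhrf1 lower and Tdg and Mbd3 higher, against 37.9% of all genes, 17.2% lower and 20.7% higher.

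**Figure D2:**
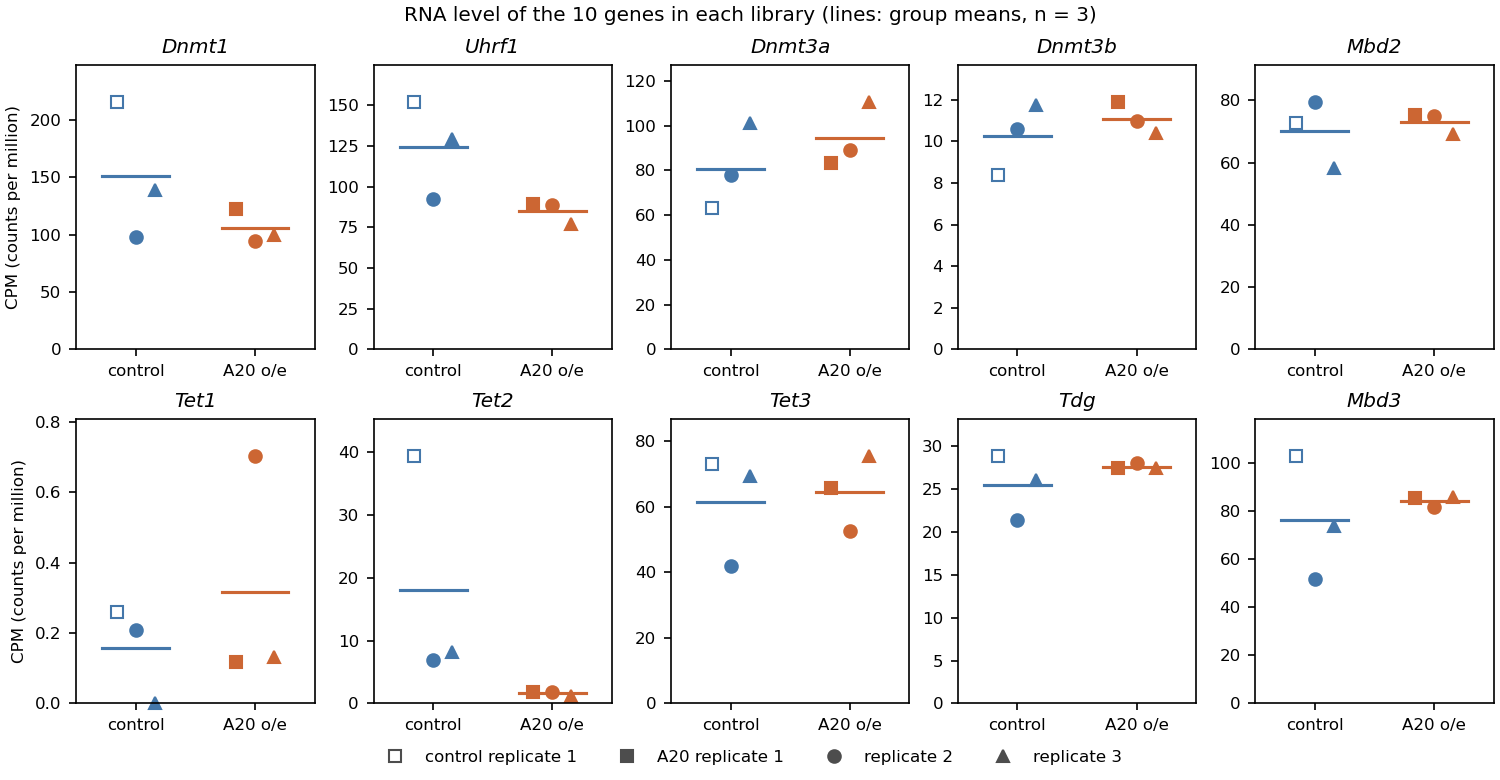
RNA level in CPM (y axis, from 0) of the 10 genes in control and A20-overexpressing (A20 o/e) libraries; each symbol is a library, the open square is control replicate 1 and lines are group means of 3. Tet2 lies at 1.19 to 1.79 CPM with A20 overexpression and at 6.83 CPM or more in every control, while the other panels show overlapping or nearly touching groups.

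Among the erasers, Tet2, a 5-methylcytosine dioxygenase without a CXXC domain of its own, held the large difference. The gene (ENSMUSG00000040943; minus strand of GRCm38 chromosome 3, 133463679 to 133545139) was measured at 39.4, 6.83 and 8.16 CPM in control replicates 1, 2 and 3, from 605, 98 and 113 counts. In A20-overexpressing replicates 1, 2 and 3 it stood at 1.77, 1.79 and 1.19 CPM, from 30, 28 and 18 counts. All 3 A20-overexpressing libraries were below all 3 controls, and control replicate 1 was 9.98 times the mean of the other 5 libraries. The counting intervals alone (95%, exact Poisson) reached 2.59 CPM at most with A20 overexpression and began at 5.55 CPM in control replicate 2. Fitted with all 6 libraries, Tet2 was 10.7-fold lower and did not pass (edgeR adjusted p = 0.202), with a log2 fold change of -3.41 ± 0.67 (SE, n = 3 and 3). Without control replicate 1 it was 4.80-fold lower, at -2.26 ± 0.35 (SE, n = 2 and 3). The control mean was 18.1 CPM ± 18.4 (SD, n = 3) with that library and 7.497 CPM ± 0.943 (SD, n = 2) without it, against 1.58 CPM ± 0.340 (SD, n = 3) with A20 overexpression. The difference was larger with that library and had the same direction without it. In each fit that left out 1 more of the 5 remaining libraries, the log2 fold change of Tet2 lay between -2.36 and -2.10.

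Tet3, the TET enzyme with most RNA here (ENSMUSG00000034832, chromosome 6, 83362373 to 83459084, minus strand), showed no such difference. It stood at 73.1, 41.9 and 69.5 CPM in control replicates 1, 2 and 3 and at 65.7, 52.5 and 75.5 CPM in A20-overexpressing replicates 1, 2 and 3. The groups overlapped, and control replicate 2 was the lowest library. The log2 fold change was 0.11 ± 0.21 (SE) with all 6 libraries (edgeR adjusted p = 0.893) and 0.19 ± 0.19 (SE) without control replicate 1 (edgeR adjusted p = 0.62).

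Tet1, the family member best known from embryonic stem cells and germ cells, was at the edge of detection. Control replicates 1, 2 and 3 had 4, 3 and 0 counts of it, and A20-overexpressing replicates 1, 2 and 3 had 2, 11 and 2, at most 0.703 CPM. No comparison was detectable at this depth, and no fold is given.

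In deposited FPKM, which scales counts by gene length and library size so that genes can be compared, Tet2 made up 34.7% of the summed TET RNA in control replicate 1, 13.8% in control replicate 2 and 10.4% in control replicate 3. With A20 overexpression its share was 2.60%, 3.22% and 1.54%. The sum over the 3 TET genes was 6.04, 3.13 and 4.62 FPKM in control replicates 1, 2 and 3 and 4.03, 3.38 and 4.59 FPKM in A20-overexpressing replicates 1, 2 and 3. The shares did not overlap between the groups but the sums did, and Tet3 held 65.0% or more of the TET RNA in every library.

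**Figure D3:**
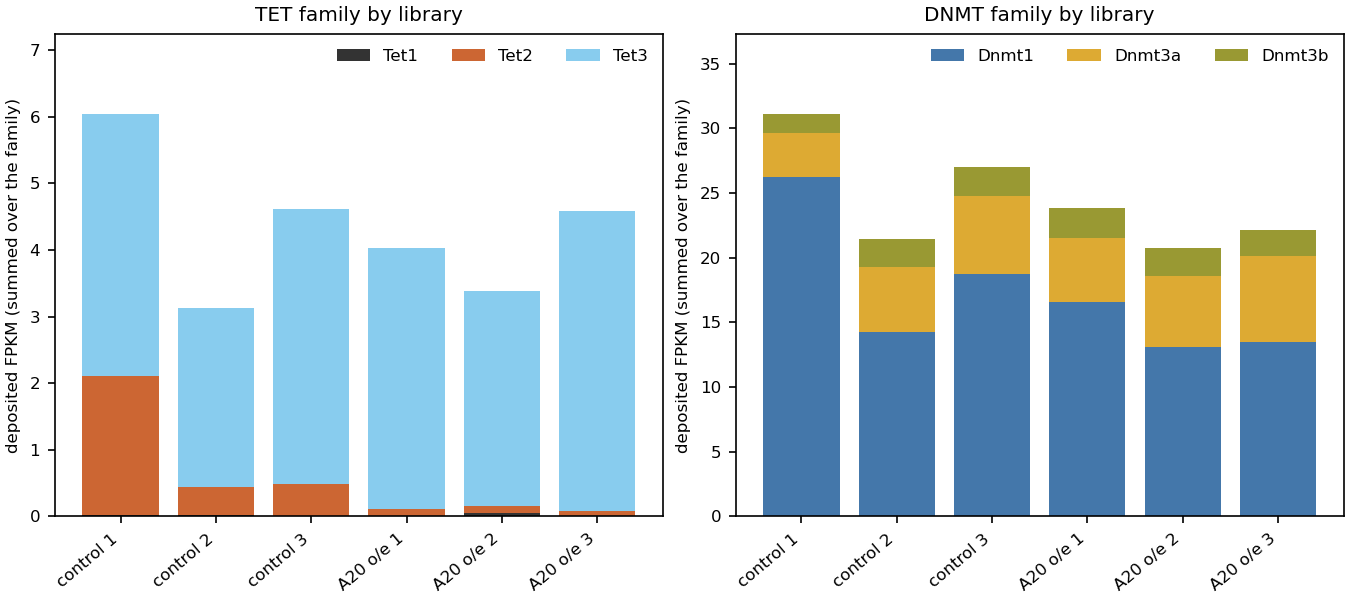
Deposited FPKM (y axis, from 0) of the TET genes (left) and the DNA methyltransferase genes (right) stacked in each of the 6 libraries. The Tet2 segment is 34.7% of the bar in control replicate 1 and at most 3.22% with A20 overexpression, and Dnmt1 is the largest segment of the right panel in every library.

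Tdg, the glycosylase that removes oxidised methylcytosine (ENSMUSG00000034674, chromosome 10, 82629828 to 82650799), varied little. It stood at 28.9, 21.4 and 26.1 CPM in control replicates 1, 2 and 3 and at 27.4, 28.04 and 27.4 CPM in A20-overexpressing replicates 1, 2 and 3. The log2 fold change was 0.15 ± 0.16 (SE) with all 6 libraries and 0.19 ± 0.17 (SE) without control replicate 1, with edgeR adjusted p of 0.787 and 0.567. The gene overlaps Glt8d2 on the opposite strand, which held 197 counts over the 6 libraries, and its processed pseudogene Tdg-ps held 20. The strand setting is not given, so reads in the overlap cannot be told apart.

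Among the writers, Uhrf1, the hemimethylated-DNA binding ubiquitin ligase that brings Dnmt1 to replicated DNA (ENSMUSG00000001228, chromosome 17, 56303321 to 56323486), was lower in every A20-overexpressing library without passing the test. It stood at 151.8, 92.6 and 129.3 CPM in control replicates 1, 2 and 3 and at 89.3, 88.9 and 76.9 CPM in A20-overexpressing replicates 1, 2 and 3. The groups did not overlap, and control replicate 2, the lowest control, lay closest to the A20-overexpressing libraries. The log2 fold change was -0.51 ± 0.17 (SE) with all 6 libraries (edgeR unadjusted p = 0.0181, adjusted p = 0.433) and -0.41 ± 0.15 (SE) without control replicate 1 (unadjusted p = 0.015, adjusted p = 0.127).

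Dnmt1, the maintenance methyltransferase (ENSMUSG00000004099, chromosome 9, 20907209 to 20959888, minus strand), reached 215 CPM in control replicate 1, against 98.4 and 139.0 CPM for control replicates 2 and 3. In A20-overexpressing replicates 1, 2 and 3 it stood at 122.7, 94.2 and 99.8 CPM. The groups overlapped, and control replicate 1 was 1.94 times the mean of the other 5 libraries. The log2 fold change went from -0.46 ± 0.24 (SE, edgeR adjusted p = 0.545) to -0.20 ± 0.16 (SE, adjusted p = 0.503) when that library was left out. Dnmt1 and Uhrf1 are genes of replicating cells, and 18 of the 20 S phase genes were also highest in control replicate 1, with a median log2 ratio to the mean of the other 5 libraries of 1.17. The part of this in the Dnmt1 and Uhrf1 values was not tested. Among the S phase genes edgeR called 0 of 20 in either fit, and 5 and 1 had an unadjusted p under 0.05 with and without control replicate 1, all lower. Of all genes 5.86% and 11.2% were lower at that p in these fits. Rrm1, the most abundant of them per length, was at 0.03 ± 0.21 (SE, edgeR adjusted p = 0.971) with all 6 libraries and at -0.13 ± 0.15 (SE, adjusted p = 0.678) without that library. The list's median log2 fold change was -0.47 with all 6 libraries and -0.07 without control replicate 1.

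Dnmt3a, the main de novo methyltransferase of somatic cells (ENSMUSG00000020661, chromosome 12, 3806007 to 3914443), was lowest in control replicate 1. It stood at 63.3, 77.9 and 101.0 CPM in control replicates 1, 2 and 3 and at 83.5, 88.9 and 110.4 CPM in A20-overexpressing replicates 1, 2 and 3. The log2 fold change was 0.24 ± 0.22 (SE) with all 6 libraries and 0.05 ± 0.16 (SE) without control replicate 1, with edgeR adjusted p of 0.75 and 0.902.

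Dnmt3b, the other de novo enzyme (ENSMUSG00000027478, chromosome 2, 153649450 to 153687730), was the scarcest writer, at 8.40, 10.6 and 11.8 CPM in control replicates 1, 2 and 3. It stood at 11.9, 10.99 and 10.4 CPM in A20-overexpressing replicates 1, 2 and 3. Over control replicates 2 and 3 and the A20-overexpressing libraries the values spanned 10.4 to 11.9 CPM, and the log2 fold change there was -0.04 ± 0.22 (SE, edgeR adjusted p = 0.932). With all 6 libraries it had the other sign, at 0.13 ± 0.27 (SE, edgeR adjusted p = 0.901). The opposite-strand genes Dnmt3aos and Dnmt3bos held 6 and 2 counts in all.

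Per length, Dnmt1 held 84.3% of the summed methyltransferase FPKM in control replicate 1 and 60.9% to 69.4% in the other 5 libraries. The ratio of Dnmt3a to Dnmt1 FPKM was 0.130 in control replicate 1, 0.351 and 0.322 in the remaining controls, while A20-overexpressing replicates 1, 2 and 3 gave 0.301, 0.419 and 0.490. The ratio of de novo to maintenance enzyme RNA overlapped between the groups with control replicate 1 and without it.

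Of the readers, Mbd2, which binds methylated CG pairs (ENSMUSG00000024513, chromosome 18, 70568189 to 70626131), stood at 72.8, 79.3 and 58.2 CPM in control replicates 1, 2 and 3. With A20 overexpression it stood at 75.1, 74.9 and 69.3 CPM. The A20-overexpressing values lay inside the control range, and the log2 fold change was 0.08 ± 0.17 (SE) with all 6 libraries and 0.05 ± 0.16 (SE) without control replicate 1 (edgeR adjusted p of 0.902 and 0.901).

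Mbd3, the NuRD subunit that in mammals binds methylated DNA only weakly (ENSMUSG00000035478, chromosome 10, 80392539 to 80399550, minus strand), measured 102.9, 51.9 and 73.8 CPM in control replicates 1, 2 and 3. In A20-overexpressing replicates 1, 2 and 3 it stood at 85.3, 81.5 and 86.0 CPM. The A20-overexpressing libraries lay above control replicates 2 and 3 and below control replicate 1. The log2 fold change was 0.19 ± 0.20 (SE) with all 6 libraries (edgeR adjusted p = 0.781) and 0.39 ± 0.15 (SE) without control replicate 1 (unadjusted p = 0.0198, adjusted p = 0.145). With control replicate 2 as the only control, the log2 fold changes of Mbd3 and Tet3 were 0.62 and 0.54. With control replicate 3 as the only control they were 0.20 and -0.10, so these sizes rest on which single control is kept. Across all other settings tried without control replicate 1, the log2 fold change of Uhrf1 lay between -0.59 and -0.20.

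**Figure D4:**
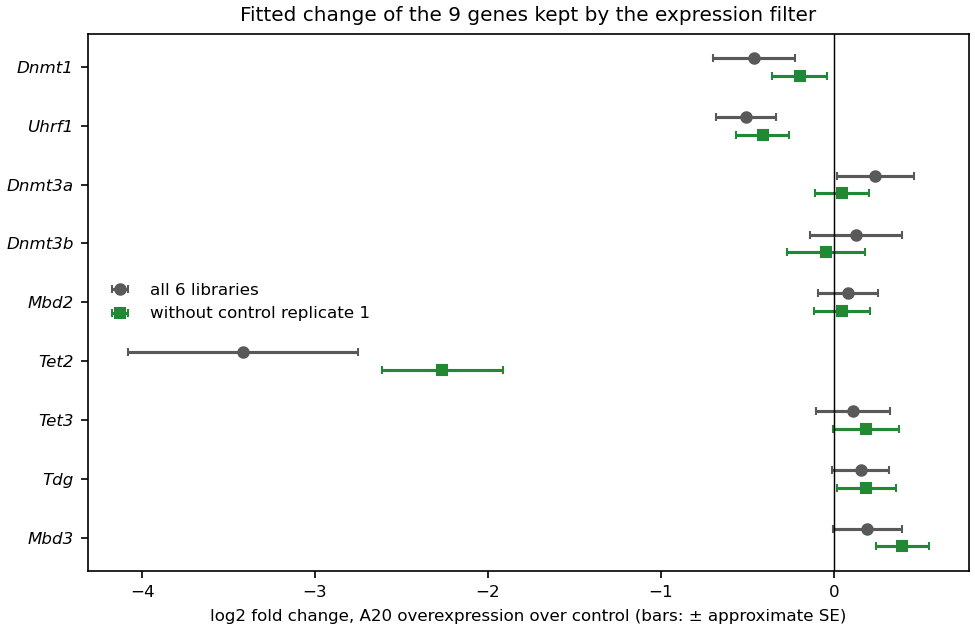
Fitted log2 fold change of A20 overexpression over control (x axis) for the 9 genes tested, with bars of 1 approximate SE, for all 6 libraries (grey circles) and without control replicate 1 (green squares). Tet2 lies at -3.41 and -2.26, and the other 8 genes lie between -0.51 and 0.39.

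The order of the levels per length was Mbd3, Uhrf1, Mbd2, Dnmt1, Dnmt3a, Tdg, Tet3, Dnmt3b, Tet2 and Tet1, from a mean of 39.9 FPKM for Mbd3 over the 6 libraries to 0.549 FPKM for Tet2 and 0.0154 FPKM for Tet1. The ranges of Uhrf1, Mbd2 and Dnmt1 overlapped. Uhrf1 was above Mbd2 in 2 of 6 libraries and Mbd2 above Dnmt1 in 4, so Mbd2 has no firm place among them. Uhrf1 was 1.22 to 1.64 times Dnmt1 in every library. Dnmt3a was above Tdg in 4 of 6 libraries, so these neighbours have no firm order. The ranges of Mbd3 and Uhrf1, and of Tdg and Tet3, overlapped too, but Mbd3 and Tdg were the higher in each library. Gaps without overlap separated Dnmt1 from Dnmt3a, Tet3 from Dnmt3b, and Tet2 from Tet1. Dnmt3b was above Tet2 in 5 of 6 libraries, the exception being control replicate 1, with 1.48 FPKM of Dnmt3b and 2.10 FPKM of Tet2.

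Genes whose mean reached 5 CPM, 10282 in number, were ranked by Pearson's r of log2(CPM + 0.5) with Tet2 over the 6 libraries, a measure of shape and not of size, with the group difference and control replicate 1 shared by all points. Nearest were Gng5 (0.998), Trim44 (0.998), Whrn (0.997), Szrd1 (0.994) and the pseudogene Gm15542 (0.994). Of the 10282 genes, 136 exceeded 0.95. Trim44 and Whrn differed by more than Tet2 did. Both, like Tet2 itself, reached a mean of 5 CPM only through control replicate 1. The mean of Tet2 was 9.86 CPM over the 6 libraries and 3.95 CPM over the 5 without control replicate 1. Trim44 stood at 126 CPM in control replicate 1, at 9.62 and 8.96 CPM in control replicates 2 and 3, and at 0.199 to 0.703 CPM with A20 overexpression, and Whrn at 46.6, 2.997 and 5.42 CPM and at 0 to 0.192 CPM. Gng5 in contrast spanned only 92.9 to 134 CPM. The same filter, on the mean over all 6 libraries, was kept for the ranking without control replicate 1. Over those 5 libraries the nearest were Afap1, Gm15542, Pcna, Prkcd and Ccp110, at 0.995 to 0.999, where 193 of 10237 genes exceeded 0.95. Gm15542 alone was in both sets.

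On chromosome 3, some genes next to Tet2 were also lower with A20 overexpression, by less than Tet2 was. Nearest on one side was the pyrophosphatase gene Ppa2, among 9 protein-coding genes within 1 Mb of the ends of Tet2. It stood at 28.9, 20.8 and 19.6 CPM in control replicates 1, 2 and 3 and at 15.8 to 18.4 CPM with A20 overexpression. Beyond it, Ints12 stood at 19.8 to 25.1 CPM in the controls and at 16.6 to 19.3 CPM with A20 overexpression. Gstcd stood at 41.3 to 49.3 and at 36.5 to 38.4 CPM. In each of these genes the groups did not overlap, where 9.27% of all genes were so separated and lower. Aimp1, Tbck and Npnt overlapped, Arhgef38 had no count and Gimd1 had counts in control replicate 1 alone. On the other side lies Cxxc4, whose product carries the CXXC domain that Tet2 lacks and is known to lower Tet2 protein. It had 211 counts (13.7 CPM) in control replicate 1 and 0 counts in each of the other 5 libraries. The antisense gene Gm42567, which overlaps Tet2, had 3 counts in all, in control replicate 1.

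Partners and cofactors of the 10 genes were followed through 9 lists of 123 genes, chosen by role. With all 6 libraries edgeR called 0 of the 104 genes tested; 17 had an unadjusted p under 0.05, 8 higher and 9 lower, which is 16.3% where 10% of all genes had one. DESeq2 called 1 and limma-voom 0, and their counts over all genes are given in the last section. Without control replicate 1 edgeR called 3, all lower, which is 2.88% of those tested where 4.6% of all genes were called. These were Nsd1, Neil3 and Gatad2b, and the median log2 fold change over the 104 genes was 0.03, against -0.00276 over all genes. With all 6 libraries these medians were -0.08 and -0.03.

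Among 12 partners and regulators of the writers tested, Nsd1 fell without control replicate 1 and 11 did not pass, with list medians of -0.02 with all 6 libraries and -0.06 without that library. Nsd1 encodes a histone H3 lysine methyltransferase whose mark helps to recruit Dnmt3a. It stood at 12.1, 2.72 and 7.66 CPM in control replicates 1, 2 and 3 and at 0.946, 0.894 and 1.79 CPM in A20-overexpressing replicates 1, 2 and 3. As for Tet2, all controls lay above all A20-overexpressing libraries and control replicate 1 was highest. With all 6 libraries Nsd1 was 5.89-fold lower and did not pass, with a log2 fold change of -2.56 ± 0.57 (SE, edgeR adjusted p = 0.242). In the fit of 5 libraries it was 4.34-fold lower, with a log2 fold change of -2.12 ± 0.47 (SE, edgeR adjusted p = 0.0168), from 14 to 27 counts with A20 overexpression. The call was lost without A20-overexpressing replicate 1 (0.0921), A20-overexpressing replicate 2 (0.103) or control replicate 3 (0.158), where the log2 fold change was -1.25. Trim28, a corepressor that guides methylation to repeats and imprints, stood higher in each A20-overexpressing library, at 276 to 290 CPM against 207 to 241 CPM, and did not pass (edgeR adjusted p = 0.475 with all 6 libraries and 0.206 without control replicate 1); it was outside the naming rule and chosen after its values were seen.

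Among 17 genes that work with the erasers or in base excision repair, Neil3 fell without control replicate 1 and 16 did not pass. Neil3, a DNA glycosylase of replicating cells, stood at 39.9, 51.7 and 53.8 CPM in control replicates 1, 2 and 3 and at 37.1, 29.4 and 28.02 CPM in A20-overexpressing replicates 1, 2 and 3. Its log2 fold change was -0.61 ± 0.21 (SE, edgeR adjusted p = 0.433) with all 6 libraries. Over the 5 libraries other than control replicate 1 it was 1.71-fold lower, at -0.78 ± 0.16 (SE, edgeR adjusted p = 0.0129), and control replicate 1 was the lowest control, still above each A20-overexpressing library. The call was lost without A20-overexpressing replicate 2 (0.0717) or A20-overexpressing replicate 3 (0.0899). In that fit 5 genes of the list had an unadjusted p under 0.05 and were lower and 1 was higher, where 11.2% of all genes were lower and 10.4% higher at that p. The list median was -0.15 with all 6 libraries and -0.07 without control replicate 1. With the replicate number as a block, edgeR called 6 genes of all lists in place of 3, and its calls over all genes rose too, as given in the last section.

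Among 12 subunits of the NuRD complex, Gatad2b fell without control replicate 1 and 11 did not pass, with list medians of -0.02 with all 6 libraries and 0.01 without that library. Gatad2b, the p66-beta subunit that links Mbd2 and Mbd3 to the remodelling part of the complex, stood at 111.0, 175.7 and 142.9 CPM in control replicates 1, 2 and 3. With A20 overexpression it stood at 112.8, 100.8 and 95.4 CPM, so control replicate 1 lay inside that range. It was 1.59-fold lower, with a log2 fold change of -0.67 ± 0.15 (SE, edgeR adjusted p = 0.0171), and -0.47 ± 0.22 (SE, adjusted p = 0.529) with all 6 libraries. The call was lost on leaving out A20-overexpressing replicate 1 (0.0611), A20-overexpressing replicate 2 (0.0903), A20-overexpressing replicate 3 (0.124) or control replicate 2 (0.0761).

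**Figure D5:**
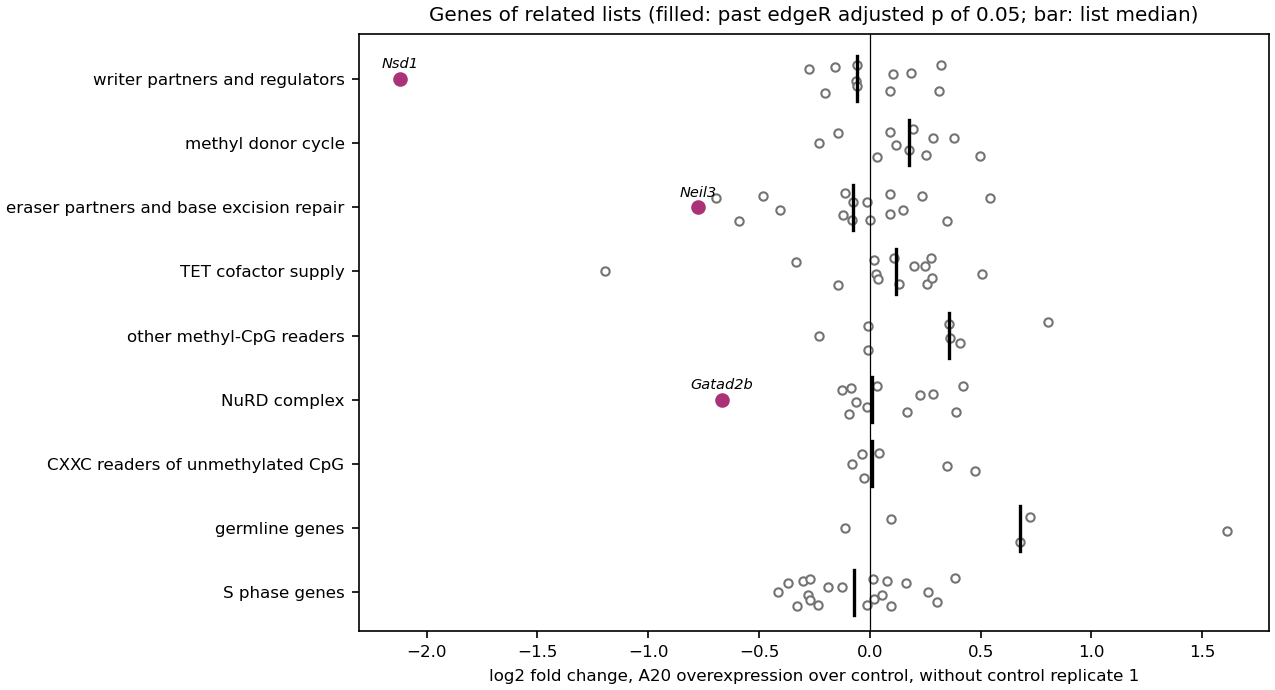
Log2 fold change of A20 overexpression over control without control replicate 1 (x axis) for each gene tested of the 9 related lists (rows). Filled points passed edgeR's adjusted p of 0.05, and black bars are list medians: 3 genes passed, Nsd1 at -2.12, Neil3 at -0.78 and Gatad2b at -0.67, and the germline list median of 0.68 rests on 5 genes.

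In the other lists edgeR called no gene in either fit. Their counts at an unadjusted p under 0.05 are given for the fit without control replicate 1, where 21.6% of all genes had one, and their medians for both fits. The methyl donor cycle, which supplies S-adenosylmethionine, had 2 of 11 genes at such a p, both higher, and a median log2 fold change of 0.07 with all 6 libraries and 0.18 without control replicate 1. Its most abundant gene per length, Ahcyl1, was at 0.14 ± 0.18 (SE, edgeR adjusted p = 0.835) and 0.12 ± 0.16 (SE, adjusted p = 0.726). The supply of TET cofactors, such as 2-oxoglutarate, had 0 of 14 and medians of 0.02 and 0.12. Without control replicate 1, 7 of the 14 were separated and higher and 1 lower, where 20.7% and 17.2% of all genes were. With all 6 libraries 1 was higher and 1 lower, where 7.62% and 9.27% of all genes were. Idh2, the most abundant of the 14, was at 0.14 ± 0.17 (SE, edgeR adjusted p = 0.814) and 0.02 ± 0.14 (SE, adjusted p = 0.957).

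The median of the other methyl-CG readers had opposite signs in the 2 fits. Of 7 genes 1 had an unadjusted p under 0.05, higher, and the median was -0.29 with all 6 libraries and 0.36 without that library. Control replicate 1 lay above each other library for 6 of the 7, as it did for 40.7% of all genes tested. Mbd6, the most abundant, was at -0.04 ± 0.29 (SE, edgeR adjusted p = 0.974) and 0.36 ± 0.18 (SE, adjusted p = 0.248). Of 6 CXXC-domain readers of unmethylated CG pairs 2 were higher at an unadjusted p under 0.05, and the medians were 0.07 and 0.01. Cxxc1, the most abundant of them, was at -0.03 in both fits (SE 0.15 and 0.16, edgeR adjusted p of 0.961 and 0.939).

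Germline genes that promoter methylation silences in somatic cells were mostly silent. Of 16 such genes, 6 had no count in any library (Dazl, Mael, Asz1, Hormad1, Tex11 and Rpl10l), and 5 passed the filter on low counts. The summed level of the 16 was 28.3 CPM in control replicate 1, 12.9 and 13.1 CPM in the other controls and 14.4 to 18.3 CPM with A20 overexpression. Sycp1, a synaptonemal complex gene and the most abundant, had a log2 fold change of 0.21 ± 0.33 (SE, edgeR adjusted p = 0.869) with all 6 libraries and 0.10 ± 0.30 (SE, adjusted p = 0.892) without control replicate 1. The median over the 5 tested was 0.21 and 0.68. With all 6 libraries 1 of the 5 was separated and higher, where 7.62% of all genes were. Brdt, outside the naming rule, had a log2 fold change of -2.35 ± 1.16 (SE) in that fit and 0.72 ± 0.68 (SE) in the other. Without control replicate 1, 3 of the 5, Brdt among them, were separated and higher, where 20.7% of all genes were. In that fit 1 of the 5, the germ cell helicase gene Ddx4, had an unadjusted p under 0.05, higher; it was outside the naming rule and chosen after its values were seen. Ddx4 stood at 3.97, 1.25 and 0.433 CPM in control replicates 1, 2 and 3 and at 3.90, 1.92 and 2.25 CPM in A20-overexpressing replicates 1, 2 and 3, from 6 to 66 counts. Its log2 fold change was 0.58 ± 0.69 (SE, edgeR adjusted p = 0.816) with all 6 libraries and 1.61 ± 0.56 (SE, adjusted p = 0.105) without control replicate 1. Among the alternatives it passed with no filter on low counts (0.0451). With control replicate 3 as the only control its log2 fold change was 2.63.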

How the data were processed

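mRNA libraries (SMARTER kit, per the labels' protocols) of 3 control and 3 A20-overexpressing samples were analysed from 2 deposited tables. The counts are the authors' whole-number counts per gene, and the FPKM values are the authors' counts divided by gene length and a scaled library size, as found by comparing both deposited tables. The gene length in bases and other annotation are per the file headers. The build was GRCm38 (mm10), per the submitters' processing notes. The aligner, counter and strand setting are not given in the sources used here.

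The 10 genes, the lists and the tests were chosen with earlier results of these data known. The named genes were the 10 members, Tnfaip3, from each list up to 4 genes per fit past the threshold or else the gene with the highest mean FPKM, the 5 genes nearest Tet2 in each set of libraries, and pseudogene copies. Counts were normalized by TMM, filtered by group at edgeR's defaults and tested in edgeR 4.0.16 under R 4.3.3 by robust quasi-likelihood. Benjamini-Hochberg adjustment covered 13350 genes for all 6 libraries and 13658 without control replicate 1. The SE is the log2 fold change divided by the square root of F. CPM used total counts, so depth set the precision of scarce genes. The alternatives used RLE, upper-quartile or no factors, other filters, DESeq2 1.42.0, limma 3.58.1, a replicate block and left-out libraries. On simulated counts with all 6 libraries (13087 genes) the procedure recovered 41% of 2-fold and 92% of 4-fold changes, and without control replicate 1 (13371 genes) 77% and 99%. Of the calls made, 7.64% and 7.85% were false, more than the threshold of 0.05 aims at. These rates were not split by level. Whether they hold for scarce genes such as Tet2, Nsd1 and Ddx4 was not tested. The same goes for data in which a library lies as far apart as control replicate 1. Promoter windows came from RefSeq (GRCm38.p6), searched on both strands for CG pairs.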

Additional observations from a re-analysis of the deposited data

How the results depend on the processing

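The direction of Tet2 was lower under every alternative in both fits, 17 with all 6 libraries and 16 without control replicate 1. The log2 fold changes were -3.77 to -0.77 and -2.36 to -0.41. All of these reuse the same counts, in which every A20-overexpressing library lay below every control, so the shared direction adds no support. The smallest sizes came from limma-trend on log2(FPKM + 1), where the pseudocount exceeds most Tet2 values. With all 6 libraries edgeR and limma-voom did not call Tet2 (adjusted p = 0.202 and 0.365), and DESeq2 did (adjusted p = 1.33e-05). Without control replicate 1 limma-trend did not call it, on log2(FPKM + 0.1) (0.0705) or log2(FPKM + 1) (0.0721). Tet2 was dropped by the filter on a mean FPKM of at least 1. For the other 8 members tested, no alternative with all 6 libraries passed the threshold.

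Members called with all 6 libraries numbered 0, and 1 by DESeq2; the fits leaving out 1 library called 0 to 1. Without control replicate 1 the number was 1, and 0 by each of the 3 limma-trend settings. It stayed at 1, Tet2, on leaving out any 1 A20-overexpressing library. Related list genes called with all 6 libraries numbered 0, and 1 by DESeq2, with 0 to 3 on leaving out 1 library. Without control replicate 1 they numbered 3, 5 by DESeq2, 8 with no filter on low counts, 6 with the replicate block and 0 by each limma-trend setting, with 1 to 13 on leaving out 1 more library.

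Of all genes, 2 were called with all 6 libraries, 183 by DESeq2 (68 higher, 115 lower), 23 with no filter on low counts, and 0 with library size alone, upper-quartile factors, no robust estimation, limma-voom or limma-trend, with 0 to 628 on leaving out 1 library. Without control replicate 1 the count was 628, then 1173 with no filter, 177 by limma-trend on log2(FPKM + 0.1), 235 on log2(FPKM + 1) and 53 with a mean FPKM of at least 1, and 142 (A20-overexpressing replicate 1) to 2423 (control replicate 3) on leaving out 1 more library. Leaving out control replicate 2 or 3 there leaves 1 control, which is assumed to vary like the A20-overexpressing libraries. The replicate block called 2 and 797 genes and changed no call of a member. Whether the numbers pair the samples is not given in the sources used here. Same-numbered control and A20-overexpressing libraries deviated from their group means with correlations of 0.0378, 0.122 and -0.0504. Libraries with different numbers gave -0.191 to 0.167. With 3 libraries per group and control replicate 1 apart, these values cannot decide it. The causes of the differences between the alternatives were not tested. Depth limits Tet1, Tet2 and Nsd1, which had at most 30 counts in an A20-overexpressing library.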
